A study of Homo sapiens with 3 samples.

Results

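The genes described are 10 components of the canonical NF-κB pathway, taken by symbol: the subunits NFKB1, RELA and REL, the inhibitors NFKBIA, NFKBIB and NFKBIE, the nuclear IκB protein BCL3, the deubiquitinase TNFAIP3 and the kinase subunits IKBKB and IKBKG. They are 10 of the 43913 genes with at least 1 transcript in the 3 single-cell libraries. All 10 were read in both monocultures and 9 in the coculture. IKBKG was not listed in the coculture, where each listed gene had at least 1 UMI, and its coculture ratios are not given. The libraries were 1 of MM.1S, an established multiple myeloma line, grown alone, 1 of HS-5, an established bone marrow stromal line, grown alone, and 1 of both lines after 4 h of coculture. The time of 4 h is that of the study's methods, whereas legends of its figures give a shorter one. No agent was added to any of the libraries. MM.1S cells lack 1 allele of NFKBIA, as the study's text states. Each line grew alone in its own medium, so medium, library and line cannot be told apart between the monocultures. The medium of the sequenced coculture is not given in the sources used here. Coculture, medium and library therefore cannot be told apart in the ratios of coculture over monoculture. The study also made knock-in lines in which RELA carries a fluorescent tag, and the sources used here do not say whether the sequenced cells were tagged or parental.

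NF-κB dimers, most often RELA (p65) with the p50 protein made from NFKB1, are held in the cytoplasm by IκB proteins until the IκB kinase marks these for destruction. The freed dimers enter the nucleus and switch on, among many other genes, those of their own inhibitors IκBα (NFKBIA) and A20 (TNFAIP3), which shut the response down. BCL3 belongs to the IκB family but acts in the nucleus on p50 and p52 dimers. In multiple myeloma, NF-κB activity is supported by mutations in the tumour cells and by signals from the bone marrow stroma.

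The promoters of these genes are shown because several of them answer to NF-κB itself, which binds the κB consensus, a motif of 10 bases. RefSeq promoter windows (GRCh38.p14, 250 bases before and 50 after each annotated start) were at hand for 8 of the 10 genes. A match on either strand stood in 6 of their 14 windows, 1 each for 6 genes, against 5.91% of all 35116 windows of the same length, and 7.09% of the 27305 genes with a window had a match in any. Each stretch below is read 5′ to 3′ on the gene's strand, with the matches in capitals.
NFKB1, chr4:102501300-102501329 on the plus strand: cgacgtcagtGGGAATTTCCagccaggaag
REL, chr2:60881518-60881547 on the plus strand: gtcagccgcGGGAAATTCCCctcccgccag
NFKBIA, chr14:35404811-35404840 on the minus strand: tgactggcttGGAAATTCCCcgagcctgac
NFKBIB, chr19:38899932-38899961 on the plus strand: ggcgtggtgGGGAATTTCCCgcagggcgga
TNFAIP3, chr6:137867188-137867217 on the plus strand: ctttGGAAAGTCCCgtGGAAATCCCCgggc
BCL3, chr19:44748700-44748729 on the plus strand: ccggctgcagGGGAAGTCCCggcgcccggc
In REL and NFKBIB the capitals hold 2 overlapping matches, 1 on each strand, and in TNFAIP3 they are 2 separate ones, which begin 67 and 55 bases before the start. The NFKB1 match begins 49 bases and the NFKBIA match 81 bases before the start, whereas that of BCL3 begins 2 bases after it. The windows of RELA and IKBKG held no match, and binding was not measured in these libraries.

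Transcripts were counted by Drop-seq as unique molecular identifiers (UMIs), 10433182 in the MM.1S monoculture, 6143448 in the HS-5 monoculture and 3981392 in the coculture. Only cells with 200 or more detected genes were used, and coculture cells were given to a line by their UMIs of 82 genes at least 50-fold higher in the MM.1S monoculture and 231 at least 50-fold higher in the HS-5 monoculture. This gave 3947 MM.1S and 3732 HS-5 monoculture cells, and 1642 MM.1S and 2106 cocultured HS-5 cells, with 108 cells of mixed content left out. The median depth was 2201 UMIs in the MM.1S monoculture, 669 in cocultured MM.1S cells, 971.5 in the HS-5 monoculture and 957 in cocultured HS-5 cells. The median mitochondrial share in MM.1S cells was 6.24% alone and 3.62% in coculture. All 3 libraries shared 38 barcodes and single pairs of them up to 76, and leaving shared barcodes out altered no call given here. Of 8 plasma cell markers, 7 were over 2-fold higher in MM.1S, whereas SDC1 was 3.53-fold higher in HS-5. Of 8 stromal markers, COL1A1, COL1A2, SPARC and THBS1 were over 2-fold higher in HS-5, and LGALS1 was 1.68-fold higher. FN1 and CAV1 were higher in MM.1S, and TAGLN had only 0.326 CPM in HS-5 and 0.288 CPM in MM.1S. Levels are UMIs per 1000000 (CPM) with exact 95% Poisson intervals. With 1 library per condition no test was possible and no p-value is given, and all intervals cover counting error only. Levels are compared within a gene and not between genes, since counts were not divided by length.

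**Figure D1:**
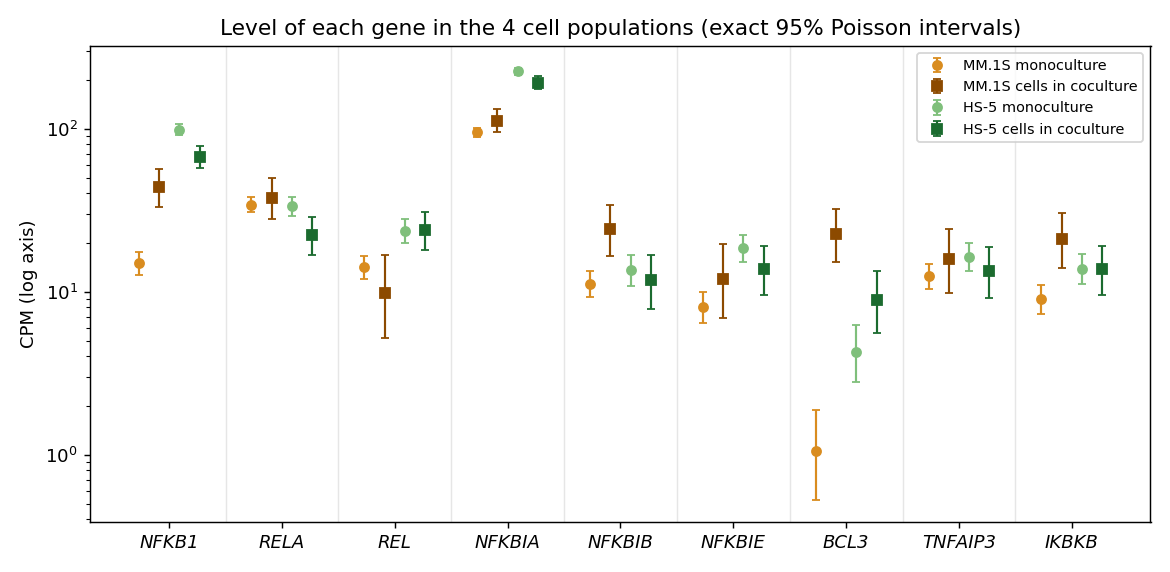
Level of 9 of the genes in CPM (log axis) in the 4 cell populations, with circles for monocultures, squares for coculture and bars for exact 95% Poisson intervals of the counts. NFKB1 is lowest in the MM.1S monoculture (14.9 CPM) and highest in the HS-5 monoculture (98.5 CPM), and BCL3 is highest in cocultured MM.1S cells (22.6 CPM).

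In MM.1S cells, coculture went with more NFKB1 and much more BCL3, while RELA, REL and NFKBIA stayed within counting error of the monoculture. A gene was called where its CPM, with 1 added, differed at least 2-fold and its mean was at least 10 CPM. By this rule 4 of 9 genes were higher in coculture (NFKB1, NFKBIB, BCL3 and IKBKB) against 19% of all 7838 genes, and 0 were lower against 5.81%. BCL3 and IKBKB had under 10 CPM alone and reached the minimum only through the coculture, so this count is a description. The ratios of all genes in MM.1S were themselves shifted upwards, with a median log2 ratio of 0.24, and the median of the 9 genes was 0.53. Relative to that shift only NFKB1 (1.25) and BCL3 (3.28) stayed past 2-fold, and NFKBIB (0.80) and IKBKB (0.90) did not. In HS-5 cells 0 of 8 genes were called in either direction, against 1.19% of 8815 genes higher and 1.83% lower in coculture. Their median log2 ratio there was -0.26 beside -0.04 for all genes. Of the 8 genes, 7 had a log2 ratio below 0, where 46.6% of all genes lay above 0. Only NFKB1, RELA and NFKBIA were lower beyond counting error.

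**Figure D2:**
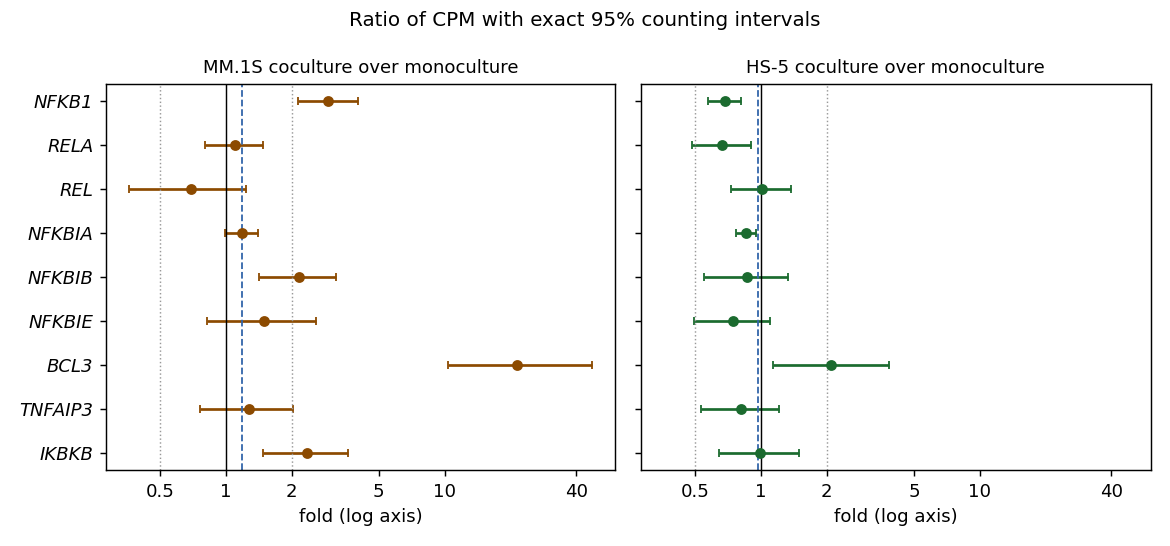
Ratio of CPM in coculture over monoculture (log axis) for MM.1S cells on the left and HS-5 cells on the right, with exact 95% counting intervals, the solid line at 1, dotted lines at 2-fold in either direction and the dashed line at the median of all genes. In MM.1S cells the intervals of BCL3 (10.4 to 47.4) and NFKB1 (2.14 to 4) lie above 2-fold, and in HS-5 cells those of NFKB1, RELA and NFKBIA lie below 1.

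NFKB1 (chromosome 4, 102501329 to 102617302 on the plus strand, GRCh38 in GENCODE release 29) encodes the p105 precursor of p50, which as a dimer with RELA forms the commonest NF-κB. It had 14.9 CPM in the MM.1S monoculture (12.6 to 17.4, 155 UMIs) and 43.7 CPM in cocultured MM.1S cells (33.2 to 56.5, 58 UMIs), a ratio of 2.94 (2.14 to 4). Its level was 98.5 CPM in the HS-5 monoculture (90.8 to 107, 605 UMIs) and 67.3 CPM in cocultured HS-5 cells (57.5 to 78.3, 167 UMIs), a ratio of 0.683 (0.572 to 0.812). Coculture thus went with a higher level in the line that had little and a lower one in the line that had much, and none of the 4 intervals overlapped another. The distance between the lines was 6.63-fold in monoculture (5.55 to 7.96). The NFKB1 ratio in MM.1S was higher than that of 91.8% of the genes, and its log2 value ranged from 1.03 to 1.68 over the other ways of processing. In 1 cell of the MM.1S monoculture 16 UMIs of NFKB1 were counted, and without that cell the level was 13.3 CPM. UMIs left in MM.1S droplets by free RNA of HS-5 cells were estimated at 1.72% of their total, which is worth 1.16 CPM of NFKB1, and 43.2 CPM remained after subtraction.

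RELA (chromosome 11, 65653596 to 65663094, minus strand) encodes p65, the subunit with the transactivation domain. It had 34.2 CPM in the MM.1S monoculture (30.8 to 38), 37.7 CPM in cocultured MM.1S cells (27.9 to 49.6), 33.4 CPM in the HS-5 monoculture (29 to 38.3) and 22.2 CPM in cocultured HS-5 cells (16.7 to 28.8). The first 3 populations did not differ beyond counting error, although the log2 ratio in MM.1S, 0.13 here, was -0.34 with median-of-ratios scaling and -0.70 with cells thinned to 1000 UMIs. The cocultured HS-5 cells lay lowest, with a ratio of 0.664 to their monoculture (0.484 to 0.898). The 2 lines in monoculture had a ratio of 0.975 (0.817 to 1.16), so for this subunit the lines were close, where all genes were shifted towards HS-5 and NFKB1 set them further apart. REL (chromosome 2, 60881521 to 60931610, plus strand) encodes c-Rel, a subunit best known from lymphocytes. It had 14.1 CPM in the MM.1S monoculture (11.9 to 16.6) and 9.79 CPM in cocultured MM.1S cells (5.21 to 16.7, 13 UMIs), and 23.6 CPM (19.9 to 27.8) and 23.8 CPM (18.1 to 30.7) in HS-5 cells alone and in coculture. REL was therefore higher in the stromal than in the myeloma monoculture, by 1.68-fold (1.32 to 2.12). It did not differ with coculture beyond counting error in either line, which for MM.1S rests on the 13 UMIs. The log2 ratio in MM.1S, -0.48 here, was -0.94 with median-of-ratios scaling. In cells with under 5% mitochondrial UMIs and a capped number of detected genes it was -0.99. The order of the lines turned around relative to genes of like exon length, with a log2 ratio of -0.29.

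NFKBIA (chromosome 14, 35401511 to 35404749, minus strand) encodes IκBα, the inhibitor that NF-κB induces to end its own response. It had 95 CPM in the MM.1S monoculture (89.2 to 101, 991 UMIs) and 112 CPM in cocultured MM.1S cells (94.9 to 132, 149 UMIs), a ratio of 1.18 (0.988 to 1.4). HS-5 cells had 225 CPM alone (213 to 237) and 191 CPM in coculture (174 to 209), a ratio of 0.85 (0.764 to 0.944). Both HS-5 populations lay above both MM.1S populations, and the difference with coculture exceeded counting error only in HS-5. MM.1S cells carry the NFKBIA deletion named above. Its part in the difference between the lines was not tested, and line, medium and library cannot be told apart. In the MM.1S comparison NFKBIA stood at the centre of all genes, with a log2 ratio of 0.24 beside the same median, and it went from -0.24 to 0.32 over the other ways of processing.

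NFKBIB (chromosome 19, 38899700 to 38908893, plus strand) encodes IκBβ, an inhibitor with slower turnover that is not the classic feedback gene. It had 11.2 CPM in the MM.1S monoculture (9.27 to 13.4) and 24.1 CPM in cocultured MM.1S cells (16.5 to 34, 32 UMIs), a ratio of 2.15 (1.41 to 3.2). HS-5 cells had 13.5 CPM (10.8 to 16.8) and 11.7 CPM (7.83 to 16.8), which did not differ beyond counting error. The gene overlaps SIRT2 on the other strand, and whether the counting used strand is not given in the sources used here, so reads of both genes may be mixed. NFKBIE (chromosome 6, 44258166 to 44265788, minus strand) encodes IκBε, a further inhibitor induced by NF-κB. It had 8.05 CPM in the MM.1S monoculture (6.42 to 9.97) and 12 CPM in coculture (6.89 to 19.6, 16 UMIs), and 18.4 CPM (15.2 to 22.1) and 13.7 CPM (9.49 to 19.1) in HS-5 cells. Neighbours in the order of these levels overlapped, and of the 3 ratios only that between the monocultures, 2.28-fold (1.71 to 3.07), exceeded counting error. Of its 84 UMIs in the MM.1S monoculture 13 came from 1 cell, and 6.81 CPM remained without that cell.

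BCL3 (chromosome 19, 44747705 to 44760044, plus strand) had the highest ratio of the 9 genes read in the coculture, in both lines. In the MM.1S monoculture 11 UMIs gave 1.05 CPM (0.526 to 1.89), and in cocultured MM.1S cells 30 UMIs gave 22.6 CPM (15.2 to 32.3), a ratio of 21.4 (10.4 to 47.4) that was higher than that of 99.8% of the genes. HS-5 cells had 4.23 CPM alone (2.77 to 6.2, 26 UMIs) and 8.86 CPM in coculture (5.56 to 13.4, 22 UMIs), a ratio of 2.09 (1.13 to 3.84) at a mean of 6.55 CPM, which is under the minimum for a call. So the line with the lowest level alone had the highest in coculture, and cocultured MM.1S cells stood above HS-5 cells of the same library. HS-5 free RNA was estimated at 0.152 CPM of BCL3 in MM.1S cells, and 22.8 CPM remained after subtraction. Each of the 30 UMIs was in a different cell. Over the other ways of processing the log2 ratio in MM.1S, 3.52 here, ranged from 2.19 to 3.89.

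TNFAIP3 (chromosome 6, 137867188 to 137883312, plus strand) encodes A20, which removes ubiquitin chains from upstream adaptors and is a feedback gene like NFKBIA. It had 12.5 CPM in the MM.1S monoculture (10.4 to 14.8), 15.8 CPM in cocultured MM.1S cells (9.79 to 24.2), 16.4 CPM in the HS-5 monoculture (13.4 to 20) and 13.3 CPM in cocultured HS-5 cells (9.15 to 18.7). All 4 intervals overlapped, and the ratio of HS-5 to MM.1S alone was 1.32 (1.01 to 1.72), which turned around with another scaling (log2 ratio -0.07). IKBKB, the catalytic subunit IKKβ of the IκB kinase, had 9.01 CPM in the MM.1S monoculture (7.28 to 11) and 21.1 CPM in cocultured MM.1S cells (14 to 30.5, 28 UMIs), a ratio of 2.34 (1.48 to 3.6). HS-5 cells had 13.8 CPM (11.1 to 17.1) and 13.7 CPM (9.49 to 19.1), a ratio of 0.99 (0.645 to 1.49). IKBKB was higher with coculture in MM.1S beyond counting error, but relative to genes of like exon length its log2 ratio was 0.67, under 2-fold. IKBKG, the regulatory subunit NEMO, had 4 UMIs in each monoculture, 0.383 CPM in MM.1S (0.104 to 0.982) and 0.651 CPM in HS-5 (0.177 to 1.67). It has a near-identical pseudogene, so even these counts are uncertain. RELA and TNFAIP3 each overlap a gene on the other strand, and REL and BCL3 overlap small or further genes on the same strand, MIR8085 in the case of BCL3.

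**Figure D3:**
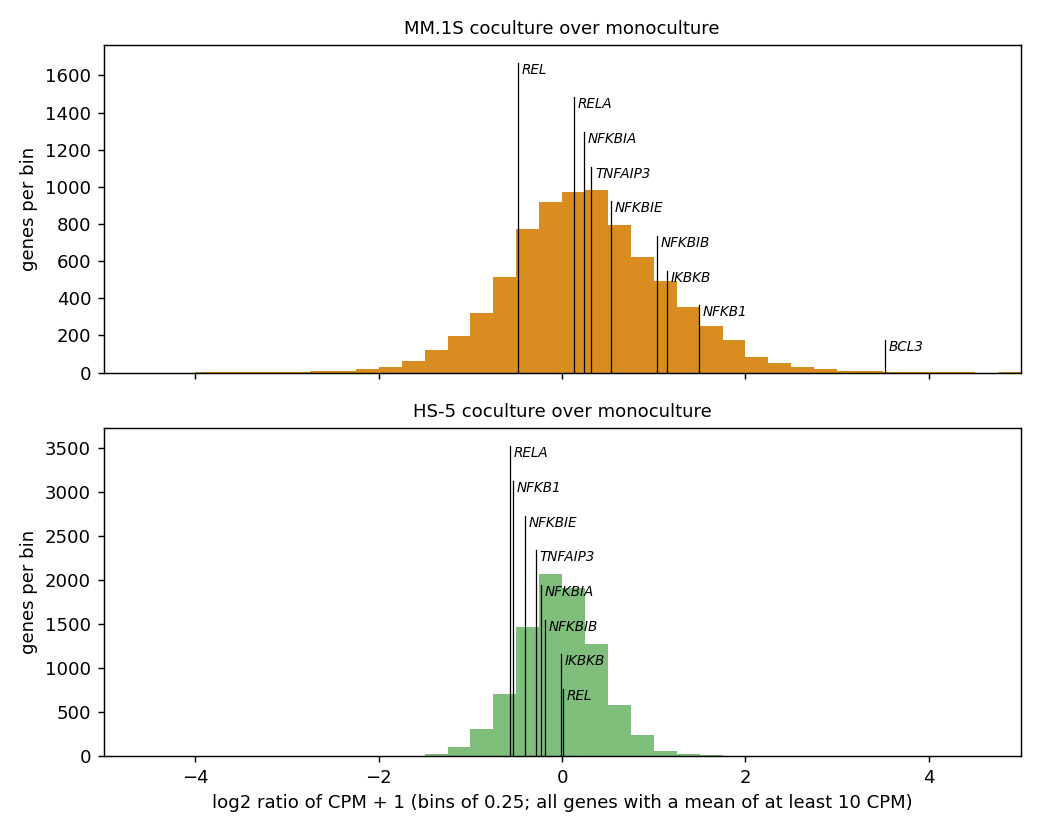
Number of genes by log2 ratio of coculture over monoculture CPM, with 1 CPM added, for all 7838 genes in MM.1S cells (top) and 8815 in HS-5 cells (bottom) whose mean reached 10 CPM, and the place of each NF-κB gene as a vertical line whose height has no meaning. In MM.1S cells BCL3 (3.52) lies far out on the right and NFKBIA (0.24) at the centre, and in HS-5 cells the 8 genes lie between -0.57 and 0.01.

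Depth and mitochondrial share differed between the 2 MM.1S populations, and the ratios of all genes went with gene length. cocultured MM.1S cells were shallower than in monoculture, and across genes the log2 ratio went with exon length in opposite directions in the lines, with a Spearman correlation of 0.23 over 7718 genes in MM.1S and -0.24 over 8695 genes in HS-5, where genes are not independent replicates. Relative to the genes of like exon length, the log2 ratio in MM.1S was 1.15 for NFKB1, 3.35 for BCL3, 1.12 for NFKBIB and 0.67 for IKBKB. In HS-5 it was -0.45 for NFKB1, -0.47 for RELA and -0.37 for NFKBIA. With each cell thinned to 1000 UMIs, the log2 ratio of NFKB1 in MM.1S was 1.68 and that of BCL3 was 3.89. In cells with under 5% mitochondrial UMIs and a capped number of detected genes, it was 1.26 for NFKB1, 3.86 for BCL3, 0.84 for NFKBIB and 1.17 for IKBKB. NFKB1 and BCL3 thus stayed past 2-fold under each of these limits.

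Between the monocultures, 3 of 8 genes were over 2-fold higher in HS-5 (NFKB1, NFKBIA and NFKBIE) against 38.1% of 8734 genes. In the other direction 0 were over 2-fold lower, against 15.3%. NFKBIE had 8.05 CPM in MM.1S and reached the minimum only through HS-5. It was not called in cells with at least 500 genes or with a pseudocount of 5 CPM. All genes were shifted by a median log2 ratio of 0.56, and relative to this only NFKB1 (2.08) stayed past 2-fold, with NFKBIA at 0.67 and NFKBIE at 0.53. BCL3, below the minimum level, was 4.01-fold higher in HS-5 (1.92 to 9). The 3 comparisons share libraries: each monoculture enters a coculture ratio and the ratio between lines.

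The ratio of 2 genes' UMIs within a population does not depend on the library total. For each RELA UMI there were 0.434 NFKB1 UMIs in the MM.1S monoculture (0.357 to 0.526), 1.16 in cocultured MM.1S cells (0.781 to 1.73), 2.95 in the HS-5 monoculture (2.51 to 3.47) and 3.04 in cocultured HS-5 cells (2.23 to 4.2). In MM.1S cells the balance of both subunits differed 2.67-fold with coculture (1.71 to 4.17), whereas in HS-5 cells, where both genes were lower, it differed 1.03-fold (0.722 to 1.48). NFKBIA UMIs per RELA UMI, the feedback inhibitor against the subunit it holds, numbered 2.78 (2.46 to 3.14), 2.98 (2.15 to 4.19), 6.73 (5.81 to 7.83) and 8.62 (6.51 to 11.6) in the same order. This ratio was 2.43-fold higher in HS-5 than in MM.1S monoculture (2 to 2.95) and did not differ with coculture beyond counting error, by 1.07-fold in MM.1S (0.756 to 1.54) and 1.28-fold in HS-5 (0.928 to 1.79). NFKBIA UMIs per NFKB1 UMI numbered 6.39 in the MM.1S monoculture (5.39 to 7.62), 2.57 in cocultured MM.1S cells (1.88 to 3.54), 2.28 in the HS-5 monoculture (2.07 to 2.51) and 2.84 in cocultured HS-5 cells (2.37 to 3.41). cocultured MM.1S cells thus had a ratio whose interval overlapped those of both HS-5 populations and lay below that of their own monoculture.

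**Figure D4:**
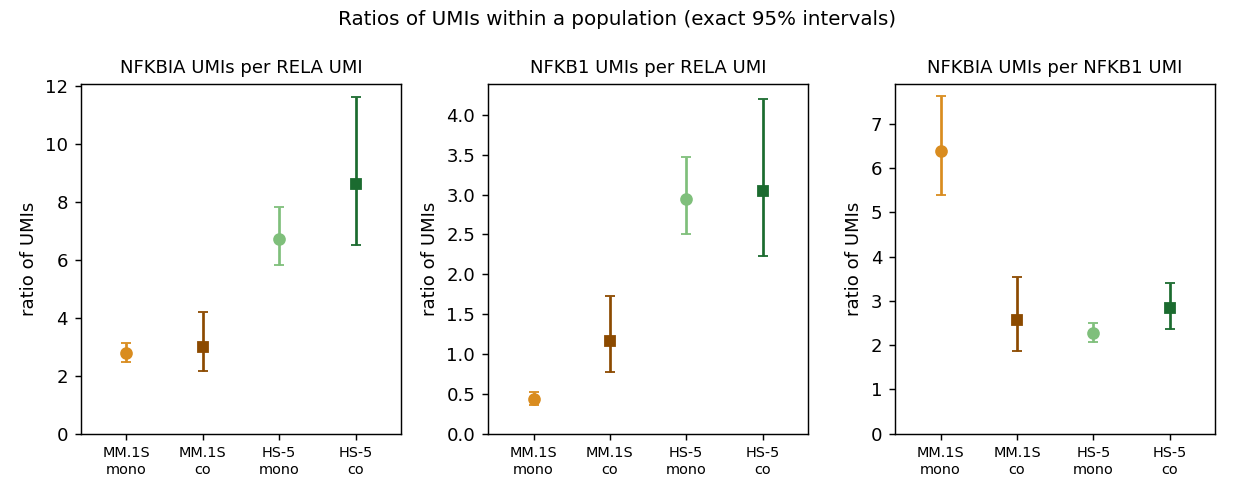
UMIs of NFKBIA per RELA, NFKB1 per RELA and NFKBIA per NFKB1 UMI in MM.1S and HS-5 cells in monoculture (mono, circles) and coculture (co, squares), with exact 95% intervals. NFKB1 per RELA goes from 0.434 to 1.16 in MM.1S cells and stays near 3 in HS-5 cells (2.95 and 3.04).

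Counted as cells, with each cell thinned to 500 UMIs and shallower ones left out, an NFKB1 UMI was found in 0.633% of 3947 MM.1S monoculture cells (exact Clopper-Pearson interval 0.41 to 0.934%) and in 1.75% of 1197 in coculture (1.09 to 2.67%). In HS-5 cells it was found in 4.58% of 3515 alone (3.91 to 5.32%) and 2.44% of 1806 in coculture (1.78 to 3.26%). Before thinning these shares were 3.12%, 3.23%, 13.6% and 6.89%. A BCL3 UMI was found in 0.076% of MM.1S cells alone (0.0157 to 0.222%) and 0.835% in coculture (0.401 to 1.53%), and before thinning in 0.279% and 1.83%. NFKB1 and BCL3 in MM.1S and NFKB1 in HS-5 were the genes whose intervals with and without coculture lay apart. This was 2 of 9 genes in MM.1S against 30.6% of all genes above the minimum level, and 1 of 8 in HS-5 against 21.2%, both below the share of all genes. No cell type here should lack these genes, so no share serves as a background. The cocultured MM.1S cells with a BCL3 UMI had a median of 940 UMIs and a median of 0.0431 for the HS-5 part of their line-specific UMIs, against 666 and 0.027 in those without, so cells with the UMI were deeper and held slightly more HS-5 RNA. The part of these in the BCL3 share was not tested, beyond the 0.152 CPM given above.

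**Figure D5:**
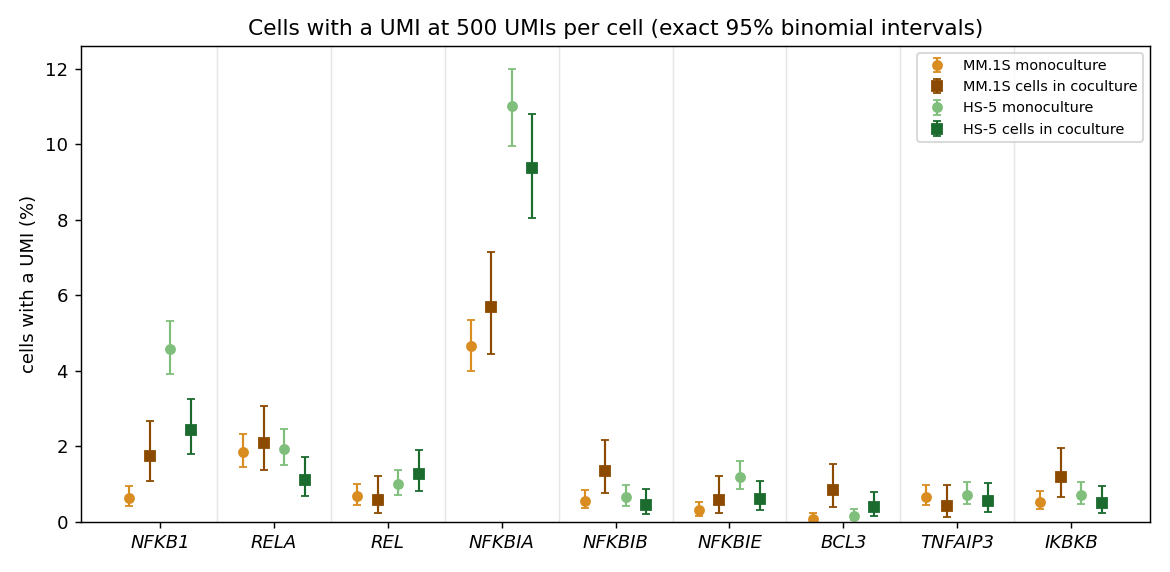
Share of cells (%) with at least 1 UMI of each gene after thinning each cell to 500 UMIs, in the 4 populations, with exact 95% binomial intervals. NFKBIA is found in 11% and 9.36% of HS-5 cells alone and in coculture and in 4.64% and 5.68% of MM.1S cells, and NFKB1 goes from 0.633 to 1.75% in MM.1S and from 4.58 to 2.44% in HS-5.

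The genes whose UMIs went most closely with NFKBIA over the 3515 HS-5 monoculture cells, among 857 genes found in at least 10% of them, were SERPINE2, CSF3, IL6, SPEN and CHD1, with Pearson's r from 0.047 to 0.067. Over 1806 cocultured HS-5 cells r was 0.075 for CSF3 and 0.058 for IL6, and -0.000 for SERPINE2. For TNFAIP3 they were DDX1, SRP72, PDCD5, RPL36 and HMGB2, with r from 0.044 to 0.061. Correlations this weak in sparse counts of 1 library are no finding.

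Upstream of the inhibitors, receptors, adaptors, ubiquitin ligases and kinases were read as a list of 23 genes. In MM.1S cells 5 of the 17 with at least 10 CPM were over 2-fold higher in coculture and 0 lower, with a median log2 ratio of 0.77, beside 19%, 5.81% and 0.24 for all genes. The highest were the TNF receptor TNFRSF1A, with 6.13 CPM alone and 38.4 CPM in coculture (log2 ratio 2.47), and IRAK1, a kinase of the IL-1 receptor pathway, with 53.9 and 246 CPM (2.17). TNFRSF1A, TAB2 and TAB3, 3 of the 5, had under 10 CPM alone and reached the minimum only through the coculture. The lowest were TRADD (-0.91) and SHARPIN (-0.83), an adaptor of TNFRSF1A and a subunit of a ubiquitin ligase. In HS-5 cells 0 of 14 genes were called, with a median of 0.04, from BIRC3 (-0.76) and IRAK1 (-0.47) to CHUK (0.36) and TRAF5 (0.55). Among all genes in HS-5, 1.19% were higher and 1.83% lower, with a median of -0.04, so a count of 0 is close to these shares. TNFRSF1A, IRAK1 and TAB2 had ratios above 2-fold in MM.1S and below 1 in HS-5, as NFKB1 did. Since only 46.6% of all genes in HS-5 had a log2 ratio above 0, a ratio below 1 there is common. For TNFRSF1A and TAB2 the intervals of the HS-5 levels alone and in coculture overlapped. The difference between the lines was not tested.

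Other inhibitors and regulators of the pathway, 17 genes, were called higher in 2 and lower in 1 of 11 in MM.1S cells, with a median of 0.48 beside 0.24 for all genes. The share called higher is close to the 19% of all genes, and 5.81% of all genes were lower. The deubiquitinases USP7 (1.93) and OTULIN (1.55) were highest, and TAX1BP1 (-0.25) and the A20 partner TNIP1 (-1.01) lowest. In HS-5 cells 0 of 16 were called, from USP7 (-0.46) and NFKBIZ (-0.35) to PDLIM2 (0.20) and COMMD1 (0.86). This too is close to the 1.19% higher and 1.83% lower among all genes in HS-5. Of the non-canonical genes NFKB2, RELB and MAP3K14 only NFKB2 passed the minimum level with coculture, with a log2 ratio of 0.72 in MM.1S and -0.18 in HS-5.

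Of 28 genes known as targets of canonical NF-κB, 5 of 12 were over 2-fold higher in cocultured MM.1S cells and 1 was lower, with a median of 0.83, beside 19%, 5.81% and 0.24 for all genes. The highest were the chemokine gene CCL2 (4.33) and the transcription factor gene IRF1 (3.59), and the lowest were TNIP1 (-1.01) and the adhesion gene ICAM1 (-0.34). CXCL8 was among the 5, with 26.4 CPM in coculture, of which 21.4 CPM equals the estimated free RNA of HS-5 cells. After subtraction 5.03 CPM remained, below the 6.9 CPM of the monoculture, so CXCL8 is not counted as higher once free RNA is subtracted. CXCL8 also meets the rule for line-specific HS-5 genes. It thus entered the split of the coculture cells and the free RNA estimate, and its values are not independent of either. CCL2 and IRF1, like CXCL8, had under 10 CPM alone and reached the minimum only through the coculture. In HS-5 cells 1 of 24 targets was higher, CCL2 (1.97), and 0 lower, with a median of -0.01. For all genes in HS-5 these values were 1.19%, 1.83% and -0.04. SOD2 (0.77) came next after CCL2, while BIRC3 and PTGS2 were lowest (both -0.76). CCL2 was thus over 2-fold higher with coculture in both lines, whereas the inhibitor genes NFKBIA and TNFAIP3 were within 2-fold in both. Between the monocultures 21 of 24 targets were over 2-fold higher in HS-5 and 1 was lower, with a median of 4.49, beside 38.1% higher and 15.3% lower among all genes. IL6 (10.24) and IL1B (9.85) were highest, with 0 and 0.671 CPM in MM.1S against 1209 and 1545 CPM in HS-5. CFLAR (-0.45) and ICAM1 (-1.96) were lowest. Most of the 21, IL6 and IL1B among them, had under 10 CPM in MM.1S and reached the minimum only through HS-5. The count and median of the targets are therefore a description. IL6, IL1B, CXCL1, CXCL2, CXCL3, CCL20, IER3, PTGS2 and PLAU also meet the rule for line-specific HS-5 genes, as CXCL8 does. The contrast between the monocultures was thus itself the rule that picked these genes for the split. Their values in cocultured HS-5 cells are not independent of that split either. For the same contrast the median was 0.55 for the upstream list with 6 of 17 higher and 3 lower, both close to the shares of all genes, and 1.34 for the other regulators with 11 of 15 higher. The canonical members themselves had 0.64, beside 0.56 for all genes. Several of the 6 upstream genes and of the 11 regulators likewise had under 10 CPM in MM.1S and reached the minimum only through HS-5.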

How the data were processed

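The authors deposited whole-number UMI counts per gene and cell barcode of 3 Drop-seq libraries, without normalization. Per the labels, Cell Ranger 3.0.2, UMI-tools 1.0.0, STAR 2.5.3a, featureCounts 1.6.4 and SAMtools 1.9 were used with GRCh38, in no stated order. The annotation and the use of strand are not given in the sources used here. The NF-κB genes, the lists of related genes and the markers were chosen with earlier results of these data known.

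Line-specific genes had at least 50 CPM in their own line. Where HS-5 genes made up under 0.2 of the UMIs of such genes a coculture cell was taken as MM.1S, and above 0.8 as HS-5. The 108 cells between these limits were left out as mixed. A further 165 cells from 0.1 to 0.2 and 21 from 0.8 to 0.9 were kept, where unequal doublets could lie, and doublets within a line were not removed. UMIs were summed per population and scaled to CPM, and 3 counts were worth 0.288 to 2.26 CPM. Ratios carry exact conditional binomial intervals, and log2 ratios a pseudocount of 1 CPM. Exon lengths came from GENCODE release 29, which holds 97.3% of the symbols. Alternatives changed the cell limits, scaling, weighting, thinning, pseudocount, minimum level, fold, line rule and free RNA. Centring on all genes or on genes of like exon length, and leaving out shared barcodes or the cell with most UMIs of a gene, were chosen after seeing the data. All 10 genes are named. Of each list the genes with the 2 highest and 2 lowest ratios are named, and CXCL8, IRAK1, TNFRSF1A and TAB2 in further sentences were singled out after their values were seen. Further genes are named where they fell under the minimum alone or met the line-specific rule. Python 3.11.15, numpy 2.4.6, scipy 1.17.1 and matplotlib 3.10.9 were used, and the steps were tested on simulated data.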

Additional observations from a re-analysis of the deposited data

Results flagged for a closer look

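The NFKB1 ratio of coculture over monoculture was 2.94 in MM.1S cells and 0.683 in HS-5 cells, opposite directions under the same contrast. Each rests on 1 library per condition and the difference was not tested.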

How the results depend on the processing

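Of 448 values of single genes under other ways of processing, 418 stayed within their error, 25 moved and 5 turned around, and of 137 other values 122 stayed and 15 moved. In MM.1S, the 4 genes past 2-fold became 2 (NFKB1 and BCL3) with median-of-ratios scaling, without mitochondrial and ribosomal protein genes, with a pseudocount of 5 CPM or relative to the median of all genes, and 1 (NFKB1) at a minimum mean of 20 CPM, which BCL3 did not reach. In HS-5, 0 became 1 (NFKBIE, -1.15) with cells thinned to 1000 UMIs. Between the monocultures, 3 became 1 (NFKB1) with median-of-ratios scaling, without mitochondrial and ribosomal protein genes and relative to the median of all genes, and the genes' median log2 ratio of 0.64 became 0.20 with median-of-ratios scaling, 0.07 relative to all genes and 0.04 relative to genes of like exon length. TNFAIP3 turned to -0.07, -0.19 and -0.11 under these, and relative to like exon length REL turned to -0.29 and IKBKB to -0.43. Genes whose shares of cells lay apart with and without coculture went from 1 to 0 in HS-5 at 1000 UMIs. Without thinning they went from 1 to 4 in HS-5 and from 2 to 5 in MM.1S. NFKB1 (3.12% and 3.23%) was no longer among the 5 in MM.1S. Of these 5, BCL3 was higher in coculture, while RELA (8.41% alone and 2.74% in coculture), REL, NFKBIA and TNFAIP3 were lower. The median depth of MM.1S cells was 2201 UMIs alone and 669 in coculture. Of all genes, 19.9% lay apart in HS-5 at 1000 UMIs, and without thinning 48.7% in HS-5 and 83.1% in MM.1S. The centring subtracts the shift by construction, and for the other settings the cause was not tested. No paired analysis was possible because each condition is 1 library, and for the same reason no replicate could be left out. Depth limits the coculture values of MM.1S cells most: 13 UMIs of REL were the fewest among the genes listed in the coculture.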
